A study of Bos taurus with 9 samples.

Results

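Transcript levels of 10 Polycomb complex genes were followed in individual D8 bovine blastocysts that carried an intact or an ablated *TEAD4*, the gene of a transcription factor of the Hippo pathway that is linked to trophectoderm formation in the mouse. The members were taken by gene symbol from the 21512 genes listed in the deposited table. They are *EZH1*, *EZH2*, *EED* and *SUZ12* of the core of Polycomb repressive complex 2 (PRC2), *JARID2* and *MTF2* of its accessory subunits, *RNF2* and *RING1*, the ubiquitin ligases of Polycomb repressive complex 1 (PRC1), and *BMI1* and *PCGF6*, a pair of the PCGF proteins that define the kinds of PRC1. Each symbol was listed in a single row, and all 10 genes were above 0 in every embryo.

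Polycomb complexes keep developmental genes silent. PRC2 trimethylates a lysine in the tail of histone H3, PRC1 attaches ubiquitin to histone H2A, and each complex has subunits that recognise the mark of the other. In mouse embryos *EZH2*, *EED* and *SUZ12* of the PRC2 core are needed around gastrulation. PRC2 also takes part in the silencing of the paternal X chromosome in extra-embryonic cells, and the HOX clusters are the classical targets of both complexes.

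RNA was measured in 5 WT and 4 *TEAD4* KO embryos, with 1 library per blastocyst and no pooling. All embryos were produced *in vitro* from slaughterhouse oocytes fertilised with sperm of a single bull and were grown in synthetic oviduct fluid until day 8, so that sire, culture and the injection of *Cas9* mRNA are shared by the design. According to the study's methods, WT embryos had no mutated allele, as was the case for all injection controls that received *Cas9* mRNA alone, while KO embryos came from oocytes that also received a guide RNA against *TEAD4*, and each embryo was genotyped from its own DNA before its library was made. KO embryos carry randomly generated frame-disrupting indels, so their alleles can differ between embryos, and a KO embryo is a whole-embryo ablation with no restriction to a lineage. The embryos are named WT_1 to WT_5 for WT, and TE_1 to TE_4 for KO, and values listed across a genotype follow this numbering.

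Values are in TPM, a transcript abundance that is corrected for transcript length and sums to 1000000 in each library, and the reads behind each value cannot be recovered. *TEAD4* itself was listed at 18.0, 52.5, 54.3, 36.5 and 43.4 TPM across WT and at 42.8, 41.8, 12.5 and 22.2 TPM across KO embryos. These ranges overlapped (log2 fold change −0.51, SE 0.42, limma adjusted p = 0.947), and since small indels need not remove the transcript, its level does not check the genotype labels. Between 14776 and 16678 genes were above 0 per library. Markers of the blastocyst lineages were present in all embryos as sums, but not each marker. The summed level of 8 trophectoderm markers was 4166 to 18165 TPM in WT and 6607 to 12431 TPM in KO. That of 6 epiblast markers was 921 to 2433 and 1554 to 2464 TPM, and that of 6 hypoblast markers 116 to 327 and 105 to 230 TPM. *KRT8* and *KRT18*, *POU5F1*, and *GATA6* with *FN1* weighed most in these sums. In both WT_1 and TE_3, *FGF4* and *HNF4A* were at 0. *SOX2* was at 3.89 TPM in WT_1 and 2.26 TPM in TE_3, beside 19.5 to 90.4 TPM in the other embryos. *NANOG* was at 0.127 TPM in WT_1 and 3.55 TPM in TE_3. Of 8 cumulus and granulosa cell markers, which summed to 15.5 to 28.2 TPM in WT and 2.97 to 27.1 TPM in KO, *FSHR* made up most of the sum in 8 of 9 libraries, and *PTX3* was at 0 in 6 of 9. Of 8 oocyte markers, which summed to 7.97 to 18.7 and 3.84 to 11.4 TPM, *ZP3* made up most of the sum in every library. It was at 5.43 to 18.4 TPM in WT and at 3.14 to 9.38 TPM in KO, while *BMP15* and *FIGLA* were each at 0 in 8 of 9 libraries. In whole embryos, fewer cells of a type and less RNA per cell cannot be told apart.

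None of the 10 members passed the test for a change between genotypes. WT and KO were compared with limma on log2(TPM + 1) over the 14599 genes with a median above 0.1 TPM, and a gene was called changed where its Benjamini-Hochberg adjusted p-value was under 0.05 and its log2 fold change was past 1 in either direction. With 0 of 10 members called, the background was 3 genes called among all genes tested (0.0205%), 2 of them higher (0.0137%) and 1 lower in KO (0.00685%). The study, with DESeq2 and shrunken fold changes, called more genes at the same adjusted p, so this low count belongs to the fit used here. At an unadjusted p under 0.05, 1 member (*EZH1*) passed, against 5.9% of all genes tested. Without TE_4 this count was 4 (*EZH1*, *JARID2*, *MTF2* and *RNF2*, limma adjusted p 0.820 to 0.821), and it was 0 without TE_1, WT_4 or WT_5, with quantile normalization or with a pseudocount of 0.1 TPM. The smallest adjusted p of any member was 0.783. Log2 fold changes, always given here as KO minus WT, ranged from −1.03 for *JARID2* to 0.23 for *EED* with a median of −0.21, beside −0.046 for all genes tested. Values below 0 were found for 9 of 10 members and for 55.8% of all genes. This split depended on scaling, since after division by median-of-ratios size factors, which align the typical gene between libraries, 5 of 10 members and 50.8% of all genes were below 0.

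**Figure D1:**
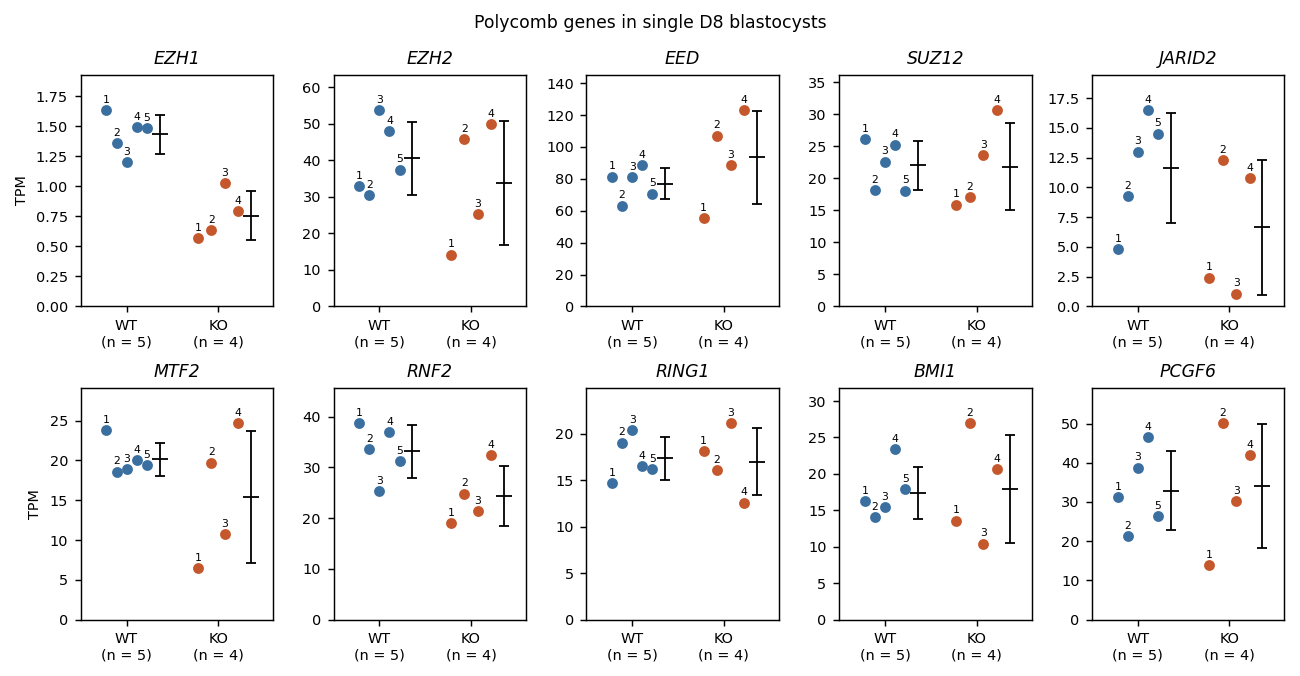
Level of each Polycomb gene in TPM (y axis, linear from 0) in 5 WT (blue) and 4 *TEAD4* KO blastocysts (orange). Each numbered point is 1 embryo, and the bar beside each group is its mean with SD. WT and KO points do not overlap for *EZH1* alone, and KO points are more widely spread than WT points for most genes.

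Within the PRC2 core, the methyltransferases stood far apart in level. *EZH2*, the main methyltransferase of dividing cells, was at 32.9, 30.5, 53.8, 48.0 and 37.4 TPM across WT and at 14.1, 45.9, 25.3 and 49.8 TPM across KO embryos. TE_1 and TE_3 lay below every WT embryo, while TE_2 and TE_4 lay within the WT range. The means were 40.5 ± 9.98 (SD, n = 5) and 33.8 ± 16.9 TPM (SD, n = 4), with a log2 fold change of −0.38 (SE 0.36, 95% interval −1.17 to 0.41, limma adjusted p = 0.966), which was −0.031 without TE_1.

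*EZH1*, the paralogue that is usually associated with non-dividing cells, was at 1.63, 1.36, 1.20, 1.49 and 1.48 TPM across WT and at 0.568, 0.634, 1.02 and 0.794 TPM across KO embryos. All 4 KO embryos lay below all 5 WT embryos, and the nearest pair was WT_3 and TE_3. It was the only member without overlap between the genotypes, beside 1.23% of all genes tested that did not overlap in this direction. The means were 1.43 ± 0.163 (SD, n = 5) and 0.755 ± 0.202 TPM (SD, n = 4), a ratio of 0.527. The log2 fold change on the log2(TPM + 1) scale, which understates differences at such low levels, was −0.48 (SE 0.19, 95% interval −0.90 to −0.055) with a limma adjusted p of 0.783. With a pseudocount of 0.1 TPM it was −0.86 (95% interval −1.73 to 0.0022, limma adjusted p = 0.822). Taken as a single value, the difference gave the smallest p that a design of 5 against 4 embryos allows (exact permutation test, two-sided, p = 0.0159, before correction for the 10 members). Any gene whose genotypes do not overlap has this p, so it adds nothing to the lack of overlap. By the same test p was 0.0635 for *RNF2* and 0.159 to 0.952 for the other members. After division by size factors the nearest embryos, WT_3 at 1.07 and TE_3 at 1.06, were almost equal, and under quantile normalization the genotypes overlapped.

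*EED*, the subunit that binds trimethylated histone H3 and stimulates the enzyme, had the highest level of the 10 members, at 81.5, 63.2, 81.3, 88.5 and 70.8 TPM across WT and at 55.4, 107, 88.5 and 123 TPM across KO embryos. TE_1 was the lowest of the 9 embryos, and TE_2 and TE_4 were the highest. It was the sole member whose estimate was above 0 in the deposited TPM (log2 fold change 0.23, SE 0.25, 95% interval −0.33 to 0.78, limma adjusted p = 0.971), and this estimate was 0.46 without TE_1 and 0.076 without TE_4. *SUZ12*, the scaffold of the complex, was at 26.1, 18.1, 22.6, 25.3 and 18.1 TPM across WT and at 15.9, 17.1, 23.6 and 30.7 TPM across KO embryos. TE_1 and TE_2 lay just below the WT range and TE_4 above it, and the means of 22.0 ± 3.84 (SD, n = 5) and 21.8 ± 6.82 TPM (SD, n = 4) were close (log2 fold change −0.045, 95% interval −0.64 to 0.55, limma adjusted p = 0.994).

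The accessory subunits *JARID2* and *MTF2* carried the most negative estimates on the log2(TPM + 1) scale, and both were low in TE_1 and TE_3. They parted in WT_1, which had the lowest WT value of *JARID2* and the highest WT value of *MTF2*. *JARID2*, which helps to bring PRC2 to chromatin already marked by PRC1, was at 4.80, 9.26, 13.0, 16.5 and 14.5 TPM across WT and at 2.42, 12.3, 1.08 and 10.8 TPM across KO embryos. TE_1 and TE_3 were the lowest of the 9 embryos, with WT_1 next, and TE_2 and TE_4 were inside the WT range. The means were 11.6 ± 4.65 (SD, n = 5) and 6.64 ± 5.71 TPM (SD, n = 4). Its log2 fold change of −1.03 was the only one of a member past 1 in size, but its interval of −2.27 to 0.21 included 0 (SE 0.57, limma adjusted p = 0.891), and without TE_3 the estimate was −0.54.

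*MTF2*, a Polycomb-like protein that binds CpG-rich DNA in the alternative form of PRC2, was at 23.8, 18.6, 18.9, 20.0 and 19.4 TPM across WT and at 6.51, 19.7, 10.7 and 24.7 TPM across KO embryos. The WT embryos were tightly grouped, TE_1 and TE_3 were well below them, and TE_4 was the highest embryo. Its log2 fold change was −0.52 (SE 0.35, 95% interval −1.29 to 0.25, limma adjusted p = 0.924), or −0.19 without TE_1. Added together, *JARID2* and *MTF2* reached 27.9 to 36.6 TPM in WT embryos, 32.0 TPM in TE_2 and 35.4 TPM in TE_4, but 8.94 TPM in TE_1 and 11.8 TPM in TE_3.

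The summed level of 12 proliferation genes was low in the same KO embryos as *EZH2*, *JARID2* and *MTF2* in the deposited TPM. It was 892 to 1083 TPM in WT embryos, 712 in TE_1 and 631 in TE_3, and 1443 in TE_2 and 1435 TPM in TE_4. With size factors TE_1, at 919, was inside the WT range of 880 to 1083 and TE_3, at 654, stayed below it. All 12 genes were tested with limma, 0 were called and 0 had an unadjusted p under 0.05, with 9 estimates below 0. Their part in the spread of the Polycomb genes was not tested. *TEAD4* was not ordered in this way, since among KO embryos it was highest in TE_1 and lowest in TE_3. In WT_1, where *JARID2* was also low, the proliferation sum was 1032 TPM as deposited. The epiblast marker *SOX2* was lowest in TE_3 and WT_1 (2.26 and 3.89 TPM), but was at 30.6 TPM in TE_1. Its relation to the Polycomb genes was not tested.

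**Figure D2:**
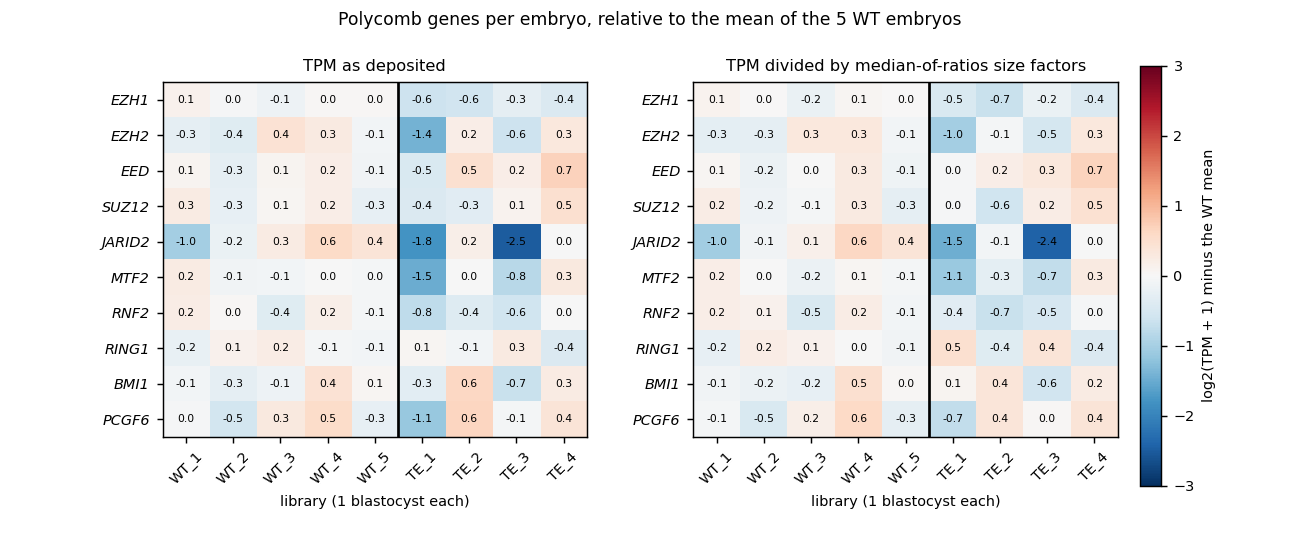
Difference of log2(TPM + 1) from the mean of the 5 WT embryos (colour and printed value) for each Polycomb gene (rows) in each blastocyst (columns), for TPM as deposited (left) and after division by size factors (right). As deposited, the most negative values are those of *JARID2* in TE_1 and TE_3 (−1.8 and −2.5) and of *MTF2* and *EZH2* in TE_1. Next are *PCGF6* in TE_1 (−1.1) and *JARID2* in WT_1 (−1.0). Several negative values of TE_1 shrink on the right.

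Of the PRC1 ligases, *RNF2*, the main enzyme for H2A ubiquitination in embryonic cells, was at 38.7, 33.6, 25.3, 37.0 and 31.2 TPM across WT and at 19.0, 24.8, 21.4 and 32.5 TPM across KO embryos. TE_1, TE_2 and TE_3 lay below every WT embryo and TE_4 lay inside the WT range. The means were 33.2 ± 5.26 (SD, n = 5) and 24.4 ± 5.88 TPM (SD, n = 4). The log2 fold change was −0.44 (SE 0.25, 95% interval −0.98 to 0.099, limma adjusted p = 0.891), and as a single value the difference had p = 0.0635 (exact permutation test, two-sided, uncorrected).

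Its paralogue *RING1* was at 14.7, 19.0, 20.4, 16.5 and 16.2 TPM across WT and at 18.2, 16.1, 21.1 and 12.6 TPM across KO embryos. Here TE_3 was the highest and TE_4 the lowest embryo, and the other KO embryos lay within the WT range (log2 fold change −0.043, 95% interval −0.59 to 0.51, limma adjusted p = 0.994). The sum of both ligases, looked at after their values were seen, was 45.8 to 53.6 TPM in WT and 37.2 to 45.1 TPM across KO embryos and did not overlap as deposited. With size factors it was 40.8 to 54.0 and 32.4 to 48.0 TPM and did overlap.

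Of the PCGF members, *BMI1* (also PCGF4), a subunit of canonical PRC1, was at 16.2, 14.0, 15.4, 23.4 and 17.9 TPM across WT and at 13.6, 27.0, 10.4 and 20.6 TPM across KO embryos. TE_2 was the highest and TE_3 the lowest embryo. *PCGF6*, which builds the variant PRC1 that silences germline genes, was at 31.2, 21.4, 38.7, 46.6 and 26.4 TPM across WT and at 13.9, 50.1, 30.2 and 42.0 TPM across KO embryos, with TE_1 lowest and TE_2 highest. In both genes the KO embryos reached past both ends of the WT range. The log2 fold changes were −0.024 for *BMI1* (95% interval −0.70 to 0.66, limma adjusted p = 0.996) and −0.042 for *PCGF6* (95% interval −0.85 to 0.77, limma adjusted p = 0.994). Both turned positive with size factors (0.029 and 0.012). The 95% intervals of *EED*, *SUZ12*, *RING1*, *BMI1* and *PCGF6* stayed within 1 log2 unit of 0 with a pseudocount of 1 or 0.1 TPM, while those of *EZH2*, *JARID2* and *MTF2* reached further below it.

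Members varied more among KO than among WT embryos. The SD of log2(TPM + 1) was larger in KO for 10 of 10 members, beside 70.1% of all genes tested, and its median over members was 0.239 in WT and 0.536 in KO (0.353 and 0.523 over all genes). With size factors it was larger for 9 of 10 members, beside 67.3% of all genes. TE_1 was the lowest embryo for 7 members, TE_3 for 2 and TE_4 for 1, and no WT embryo was the lowest for any. However, TE_1 was also the lowest embryo for 28.0% of all genes tested and had the smallest size factor, 0.776 beside 1.26 in TE_2 and 0.966 to 1.12 in the others. With size factors TE_1 was lowest for 3 members, TE_2 for 3, TE_3 for 2 and WT_2 and TE_4 for 1 each.

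TPM accounts for transcript length, so the members can also be ranked against each other by listed level. Other biases between genes were not corrected for here, and the annotation and library kit are not settled. By mean WT level the order was *EED* (77.1 TPM), *EZH2* (40.5), *RNF2* (33.2), *PCGF6* (32.9), *SUZ12* (22.0), *MTF2* (20.1), *BMI1* (17.4), *RING1* (17.4), *JARID2* (11.6) and *EZH1* (1.43 TPM). The WT ranges of neighbours in this order overlapped except at its ends, where *EED* stood above *EZH2* and *EZH1* below *JARID2*. *EED* was above *EZH2* and *JARID2* above *EZH1* in all 9 embryos.

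Within each embryo, 4 ratios of alternative subunits were compared between genotypes as differences of log2(TPM + 1), and again, as an alternative chosen after seeing the data, with no pseudocount, where a ratio does not depend on how the library is scaled. The ratio of *EZH2* to *EZH1* was 20.2 to 44.8 in WT embryos and 24.9, 72.3, 24.8 and 62.7 across KO embryos. As a difference of log2(TPM + 1) it averaged 4.06 ± 0.401 in the 5 WT and 4.16 ± 0.797 in the 4 KO embryos (± SD, p = 0.794 by exact two-sided permutation, 0.968 adjusted over the 4 ratios). With no pseudocount the log2 ratio was 4.80 ± 0.460 and 5.35 ± 0.836 (p = 0.222 by exact two-sided permutation, 0.403 adjusted). *EZH2* made up 96.4% ± 1.01 (SD) of the summed methyltransferase transcripts in WT and 97.3% ± 1.39 in KO. *JARID2* to *MTF2* had a log2 ratio of −0.84 ± 0.746 in the 5 WT and −1.35 ± 0.800 in the 4 KO embryos (± SD, p = 0.333 by exact two-sided permutation, 0.666 adjusted over the 4 ratios). The difference between genotypes, −0.51, was −0.83 without WT_1, −0.13 without TE_3 and −0.75 with no pseudocount. The ratio was lowest in TE_3 and next lowest in WT_1, at 0.10 and 0.20 on the linear scale.

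*RNF2* to *RING1* had a log2 ratio of 0.89 ± 0.392 in the 5 WT and 0.49 ± 0.598 in the 4 KO embryos (± SD, p = 0.238 by exact two-sided permutation, 0.666 adjusted over the 4 ratios). The difference of −0.40 was −0.67 without TE_4. *RNF2* was the more abundant ligase in all 9 embryos, with 55.4% to 72.5% of their summed TPM in WT, but its share was near equality in TE_1 (51.2%) and TE_3 (50.3%). *PCGF6* to *BMI1* had a log2 ratio of 0.85 ± 0.305 in the 5 WT and 0.83 ± 0.593 in the 4 KO embryos (± SD, p = 0.968 by exact two-sided permutation, 0.968 adjusted over the 4 ratios). None of the 4 ratios passed the test, with or without the pseudocount.

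Among the 6 PCGF paralogues, *PCGF1*, which belongs to the variant PRC1 that is brought to CpG islands by *KDM2B*, took the largest mean share in both genotypes, 35.1% ± 6.41 (SD) of the summed TPM in WT and 37.6% ± 5.84 in KO. It was followed by *PCGF6* with 30.1% ± 7.73 and 28.1% ± 6.10, *BMI1* with 16.0% ± 2.64 and 15.5% ± 3.68, and *PCGF3* with 13.6% ± 2.93 and 12.2% ± 5.60. *PCGF5* (4.13% and 4.80%) and *PCGF2* (1.06% and 1.72%), the near relative of *BMI1* in canonical PRC1, were minor. *PCGF3* took only 3.94% in TE_4, below its lowest WT share of 10.8%.

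**Figure D3:**
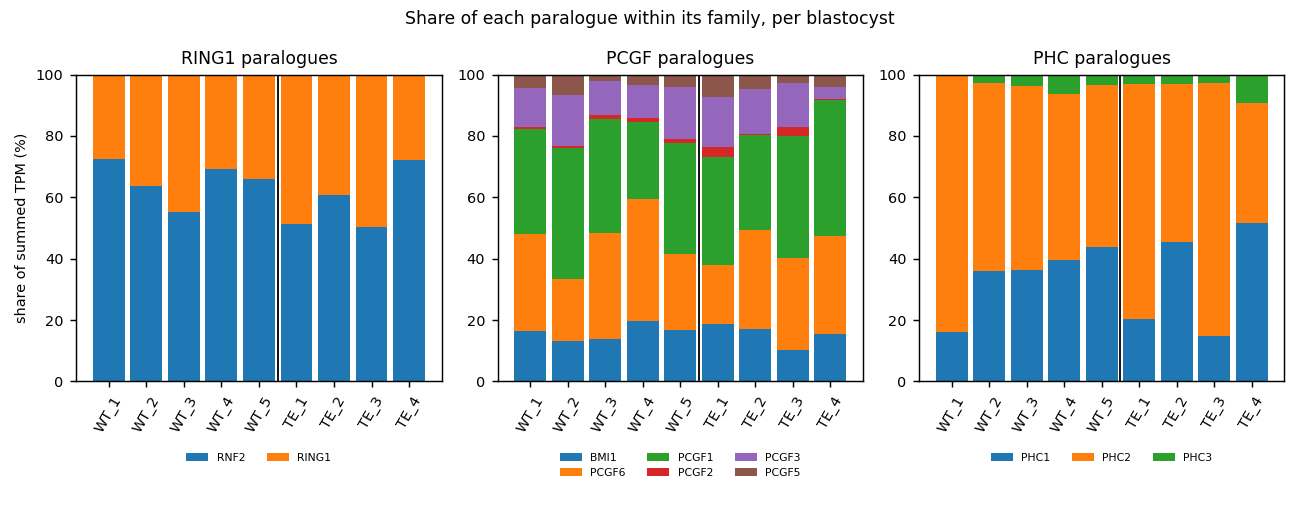
Share of each paralogue in the summed TPM of its family (y axis, percent) in each of 9 blastocysts, for the PRC1 ligases, the 6 PCGF genes and the PHC genes of canonical PRC1. The vertical line separates 5 WT from 4 KO embryos. *RNF2* exceeds 50% in every embryo, and the share of *PHC2* runs from 39.1% in TE_4 to 83.6% in WT_1.

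Chromobox genes, whose proteins read the PRC2 mark for canonical PRC1, were at low levels. *CBX8* was at 4.53 ± 0.769 (SD, n = 5) and 5.41 ± 2.25 TPM (SD, n = 4) in WT and KO, *CBX7* at 2.96 ± 0.718 and 2.66 ± 1.79, *CBX2* at 2.94 ± 1.12 and 3.47 ± 1.84, and *CBX6* at 0.269 ± 0.329 and 0.606 ± 0.339 TPM. Of the Polyhomeotic genes, whose proteins polymerise in canonical PRC1, *PHC2* was at 8.90 ± 1.76 and 7.12 ± 1.64 TPM, *PHC1* at 5.13 ± 2.22 and 4.38 ± 3.20 TPM and *PHC3* below 1 TPM in both means. *PHC1* was lowest in TE_3 (1.58 TPM), TE_1 (1.62 TPM) and WT_1 (1.93 TPM), the same 3 embryos that were lowest for *JARID2*.

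The other Polycomb-like relatives of *MTF2* were less abundant. *PHF1* was at 6.15, 5.94, 17.5, 4.17 and 7.01 TPM across WT and at 11.2, 9.88, 9.68 and 5.30 TPM across KO embryos. *PHF19* was at 1.91, 2.03, 0.809, 0.303 and 1.59 TPM across WT and at 1.97, 1.79, 1.36 and 1.66 TPM across KO embryos. Neither was low in TE_1 or TE_3, unlike *MTF2*, and neither passed the test (log2 fold change 0.24 and 0.28, limma adjusted p = 0.982 and 0.970).

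In all, 41 other subunits of both complexes were listed, and all were tested. None was called changed, none had non-overlapping genotypes and none had an unadjusted p under 0.05 with limma, and their log2 fold changes ran from −0.70 to 0.48 with a median of −5.4e-05 (21 below 0, or 18 with size factors). A further 11 genes encode enzymes, or cofactors of enzymes, that remove Polycomb marks or oppose Polycomb silencing through H3K4 methylation or H2A deubiquitination. Of these, 10 were tested with limma, 0 were called, 0 had an unadjusted p under 0.05 and 0 had non-overlapping genotypes. The remaining gene, *ASXL3*, was listed at 0 in all 9 libraries. *KDM6B*, a demethylase of the PRC2 mark named here after its values were seen, was at 9.50, 6.93, 10.8, 11.4 and 3.88 TPM across WT and at 25.8, 2.54, 23.2 and 10.3 TPM across KO embryos. It was highest in TE_1 and TE_3, in which *EZH2*, *JARID2* and *MTF2* were low, and its genotypes overlapped (log2 fold change 0.49, SE 0.56, limma adjusted p = 0.971).

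**Figure D4:**
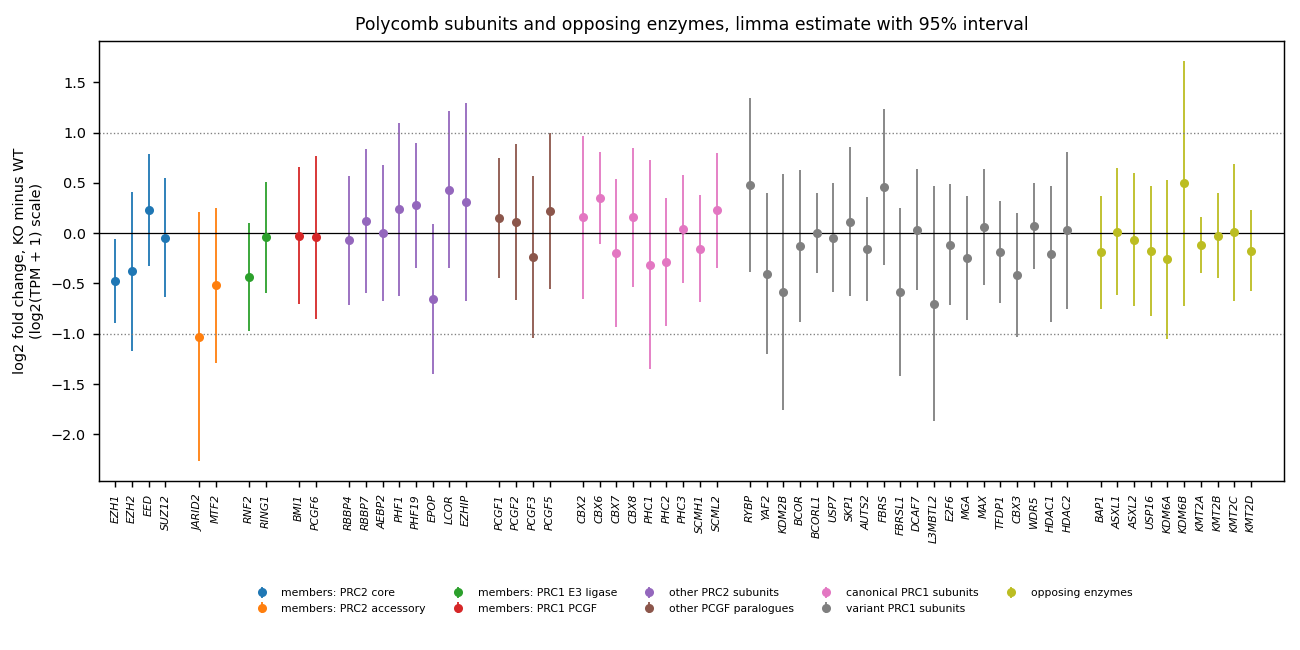
Log2 fold change, KO minus WT on the log2(TPM + 1) scale (y axis), with its 95% interval from limma for the 10 members, 41 other Polycomb subunits and 10 opposing enzymes or cofactors (x axis, grouped by role). Dotted lines mark a log2 fold change of 1 in either direction. The interval excludes 0 for *EZH1* alone, before correction, and is widest for *JARID2* among the members.

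The level of the classical targets was low in both genotypes. Of 39 HOX genes, 37 were above 0 in at least 1 library, 23 passed the filter and 12 had a median above 1 TPM, of which *HOXC9* was the highest at 8.03 TPM. None was called (0 of 23), 16 had a log2 fold change above 0 and 7 below, the same split with size factors, and their median was 0.14. In 2 of these 23 the genotypes did not overlap. *HOXC10* was at 2.72, 4.15, 8.34, 3.90 and 4.53 TPM across WT and at 1.76, 1.63, 1.25 and 1.96 TPM across KO embryos, so that every KO embryo lay below every WT embryo (log2 fold change −1.05, SE 0.31, limma adjusted p = 0.618). *HOXD4* was at 0.300, 0.533, 0.745, 0.803 and 0.610 TPM across WT and at 1.01, 1.94, 0.988 and 1.04 TPM across KO embryos, with every KO embryo above every WT embryo (log2 fold change 0.48, SE 0.20, limma adjusted p = 0.803).

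Among all genes tested, 1.23% did not overlap with lower and 0.801% with higher KO values. An unadjusted p under 0.05 was found for 5 of the 23 HOX genes (*HOXB2*, *HOXB3*, *HOXC10*, *HOXC12* and *HOXD4*), beside 5.9% of all genes tested. *HOXB2*, named after its values were seen, was at 4.76, 1.82, 2.31, 2.69 and 2.65 TPM across WT and at 4.85, 11.5, 12.3 and 4.41 TPM across KO embryos. TE_2 and TE_3 were the high embryos, and TE_4 lay below WT_1 (log2 fold change 1.19, SE 0.38, limma adjusted p = 0.624). Reads from HOX genes and their overlapping antisense transcripts may not have been told apart, since the sources differ on whether the libraries kept the strand.

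**Figure D5:**
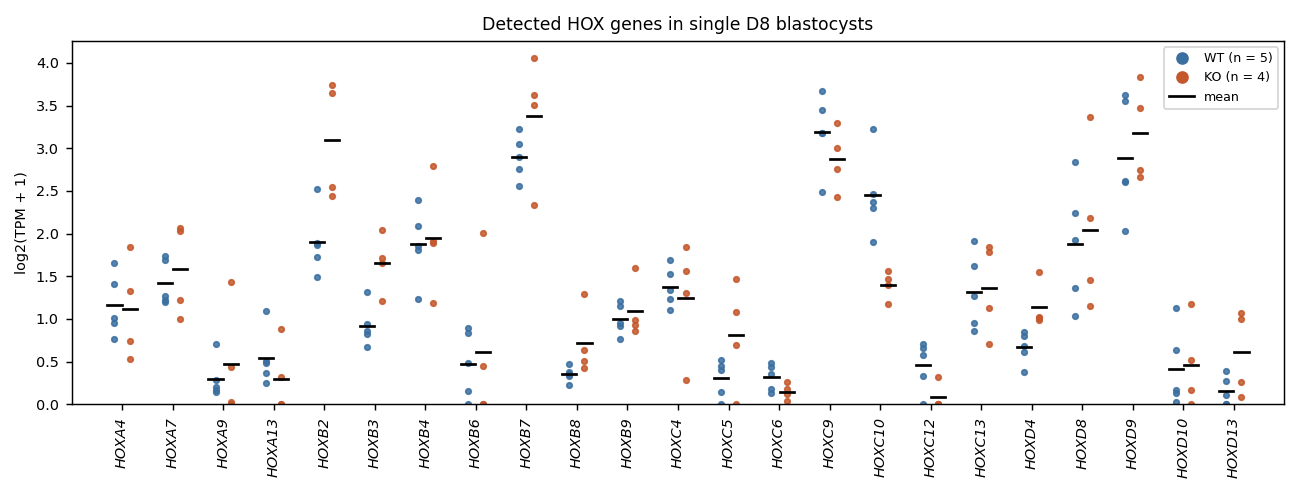
Level on the log2(TPM + 1) scale (y axis) of the 23 HOX genes that passed the filter (x axis) in 5 WT (blue) and 4 KO blastocysts (orange). Each point is 1 embryo and the black lines are group means, and WT and KO points are apart for *HOXC10* (lower in KO) and *HOXD4* (higher in KO).

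Of 31 other developmental regulators known as Polycomb targets, such as the PAX, NKX and NEUROG genes, 12 passed the filter and 30 were above 0 in at least 1 library. Of the 12 that passed the filter, none was called and none had non-overlapping genotypes. Their log2 fold change was below 0 in 11 of 12 (9 with size factors), with a median of −0.17. An unadjusted p under 0.05 was found for *DLX5* and *EN2* (limma adjusted p = 0.764 and 0.812). *GSC*, an organiser gene named after its values were seen, was the most abundant by its median of 17.8 TPM, and ranged from 1.06 TPM in WT_1 to 68.9 TPM in WT_3.

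As a description of which genes varied together with the PRC2 enzyme, the tested genes with the highest Pearson's r of log2(TPM + 1) with *EZH2* over the 9 libraries were *SRSF1* (r = 0.983, Spearman's rho 0.967), a splicing factor, *SPG11* (r = 0.982, rho 0.933) and *NABP1* (r = 0.976, rho 0.933), a single-stranded DNA binding protein. These 9 points share the scaling of their libraries and were searched over all genes tested, so no p is given. *NABP1* was at 20.4, 22.5, 37.2, 38.8 and 24.9 TPM across WT and at 6.85, 36.8, 11.1 and 41.0 TPM across KO embryos, low in TE_1 and TE_3 as *EZH2* was.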

How the data were processed

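The authors processed the reads of single blastocysts with FastQC, fastp and kallisto, which the submitters' processing notes name without versions, and deposited 1 table of TPM per gene. The annotation, genome build and the step from transcripts to genes are not given in the sources used here. The deposited labels describe total RNA with a stranded kit, and the paper mRNA with a template-switching kit. Column names gave the genotype, and all 9 columns were used, TE_4 included, although a table of the study is named as leaving out that embryo. All 10 member symbols are in RefSeq. TPM keeps no read counts, so no count model was run, and the reads behind each value and their counting error are unknown, although the study gives a range of reads per library. Nothing states a batch.

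Genes with a median above 0.1 TPM were fitted with limma 3.58.1 (R 4.3.3, eBayes with trend) on log2(TPM + 1). The fit was checked on simulated data with equal spread in both genotypes. Changes larger than any member's estimate were planted in genes well above the level of *EZH1*. The check does not show how often changes of the size estimated here would be called. Single values and ratios were compared by exact permutation with scipy 1.17.1. P-values set the difference between genotypes against the spread between embryos. Limma pools this spread over both genotypes, although it was larger in KO for every member as deposited. Alternatives were a pseudocount of 0.1, no filter or a median above 1 TPM, median-of-ratios size factors, quantile normalization, no trend, array weights, and leaving out each embryo, and for ratios no pseudocount, chosen after seeing the data. The members, gene lists and tests were chosen with earlier results of these data known. Genes named are the members, *TEAD4*, their paralogues, CBX and PHC genes, other listed Polycomb, opposing or target genes that were called or did not overlap, and the 3 genes most correlated with *EZH2*; others were chosen after their values were seen. 1 other gene is not reported here. No sequences or coordinates are given.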

Additional observations from a re-analysis of the deposited data

How the results depend on the processing

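No member was called under any of the 16 alternatives, where the smallest adjusted p of a member was 0.544 (without TE_2), and neither was any other listed subunit, opposing enzyme or cofactor, or target. *EZH1*, *EZH2*, *JARID2*, *MTF2*, *RNF2* and *EED* kept the sign of their estimates throughout. The count of all genes called, 3, was 8 with a pseudocount of 0.1 TPM or a median above 1 TPM, 5 with size factors or without trend, 6 with quantile normalization, and 0 to 10 with 1 embryo left out (0 without WT_3, WT_4, TE_1, TE_2 or TE_4, 1 without WT_5 and 10 without TE_3, with 582 to 1235 genes at an unadjusted p under 0.05). Members without overlap numbered 0 with quantile normalization and 1 to 2 with 1 embryo left out, *RNF2* joining *EZH1* without TE_4. Estimates near 0 changed sign: with size factors *SUZ12* was at 0.012, *RING1* at 0.015, *BMI1* at 0.029 and *PCGF6* at 0.012, with quantile normalization at 0.013, 0.055, 0.047 and 0.021, and with array weights *SUZ12* at 0.13 and *PCGF6* at 0.17. With 1 embryo left out they ranged from −0.22 to 0.084 (*SUZ12*), −0.15 to 0.084 (*RING1*), −0.24 to 0.19 (*BMI1*) and −0.27 to 0.32 (*PCGF6*). The differences in log2 ratio then ranged from −0.13 to 0.39 (*EZH2* to *EZH1*), −0.22 to 0.25 (*PCGF6* to *BMI1*), −0.83 to −0.13 (*JARID2* to *MTF2*) and −0.67 to −0.24 (*RNF2* to *RING1*), and that of *EZH2* to *EZH1*, 0.096, moved to 0.47 with a pseudocount of 0.1 TPM and to 0.56 with none. The causes were not tested. Embryos are numbered without repeats in the labels. No paired analysis was possible because no label pairs a WT with a KO embryo. With 4 KO embryos the intervals were wide. At a pseudocount of 1 TPM those of *EZH2*, *JARID2* and *MTF2* reached down to −1.17, −2.27 and −1.29. The intervals of the other members stayed within 1 log2 unit of 0 there but still allowed smaller differences, for example −0.59 to 0.51 for *RING1*. The number of reads behind low values such as those of *EZH1* is unknown.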

Other observations

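*TBXT*, the mesoderm regulator Brachyury and a known Polycomb target, did not pass the filter and was not tested. It was listed at 0 in all 5 WT embryos and at 0.418, 0.149, 0.195 and 0.386 TPM across KO embryos. It was noticed after the values were seen, and an exact 0 in a TPM table can be a failed estimate.

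Of the hypoblast markers, *GATA4* was at 1.43, 1.75, 1.09, 1.31 and 1.74 TPM across WT and at 0.367, 0.600, 0.957 and 0.638 TPM across KO embryos, so that, as for *EZH1*, every KO embryo lay below every WT embryo (log2 fold change −0.59, SE 0.20, limma adjusted p = 0.684). With size factors the genotypes overlapped, with TE_3 at 0.991 and WT_3 at 0.968. Both genes are near 1 TPM, and *GATA4* was named after its values were seen. Of the 6 hypoblast markers, 5 had estimates below 0 and 1 above 0 (*FN1*, 0.27), with a median of −0.57 and 0 called. *PAG2*, a trophoblast product also named after its values were seen, had the most negative estimate of the lineage markers (log2 fold change −2.57, SE 0.77, limma adjusted p = 0.618). TE_2 at 14.5, TE_3 at 70.0 and TE_4 at 3.60 TPM lay below every WT embryo, while TE_1 lay inside the WT range. The 8 trophectoderm markers did not share a direction, with 5 estimates below 0, 3 above 0 and a median of −0.14.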
